A study of Homo sapiens with 6 samples.

Results

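The genes described here are 40 splicing factors. They are 14 SR proteins, 17 hnRNPs, 3 polypyrimidine tract-binding proteins, and 6 genes of splice site recognition and its regulation (U2AF1, U2AF2, SF3B1, SON, CLK1 and CLK4). They were listed by gene name, with no measured value in the rule, and all 40 were found among the 61015 annotated genes on file. For each gene the counts of its transcripts were summed, and the share of that sum on transcripts annotated as retained_intron or nonsense_mediated_decay was taken, called here the RI/NMD share.

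Long non-coding RNA sequencing was carried out on total RNA of MDA-MB-231 cells, a human triple-negative breast cancer line, made resistant to paclitaxel (PTX), a drug that stabilises microtubules. The 6 libraries came from cells sorted on aldehyde dehydrogenase activity, with 3 libraries of breast cancer stem cells (BCSC, ALDH+) and 3 of non-BCSC (ALDH−). All 6 therefore share the resistant line and no drug-sensitive parent was compared here. The sorted fractions were assigned by sample title, since the cell type entry did not separate them.

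SR proteins carry RNA recognition motifs and a domain rich in arginine and serine. They bind exonic enhancers and recruit U2AF and U1 snRNP to nearby splice sites. The hnRNPs and PTB proteins bind nascent RNA and often block splice site choice, so that many exons are set by the balance of both families. Most of these genes also splice their own pre-mRNA into forms that are not translated. One class includes a "poison" exon with an early stop codon, which marks the RNA for nonsense-mediated decay (NMD), and another keeps an intron and stays in the nucleus.

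Total counts per library ran from 15925943 to 21215352 in BCSC and from 9898588 to 12263667 in non-BCSC, so every BCSC library was deeper. The members took 1.44 to 1.53% of the counts. The mesenchymal markers VIM, CD44 and AXL were detected in every library, at 2320.4 CPM (counts after scaling each library to one total) or more for VIM, 1251 for CD44 and 142 for AXL. FN1 lay at 100.5 to 158.2 CPM, whereas S100A4, a further mesenchymal marker, was low at 2.36 to 12.96 CPM. ESR1, PGR and CDH1 reached at most 19.1 CPM in any library. ERBB2 was not as low, at 54.7 to 85.7 CPM, so not every marker followed the label of a mesenchymal, triple-negative line. ALDH1A1 lay at 0 to 0.363 CPM in BCSC and at 2.47 to 3.14 CPM in non-BCSC, which is opposite to the sort label at these low levels, whereas ALDH1A3 lay at 25.6 to 33.4 and at 12.1 to 23.5 CPM. Olfactory receptor genes, which these cells should not transcribe, summed to 39.5, 55.4 and 151 CPM in BCSC and to 538, 696 and 1228 CPM in non-BCSC. The blood gene PTPRC moved with them, from 0.197 to 1.15 CPM in BCSC and from 13.2 to 22.6 CPM in non-BCSC. ALDH1A1 moved in the same direction, with 38, 28 and 32 counts in non-BCSC. In those libraries the olfactory genes held 8.27, 9.94 and 15.2 counts per kb of transcript. Whether ALDH1A1 lay above this background was not tested. Gene sums were tested also with this background removed. In bulk libraries such as these, fewer cells of a type and less RNA per cell cannot be told apart. The part of the background in any single result was not tested beyond that.

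To compare the level of each splicing factor between the fractions, gene sums were tested in edgeR (quasi-likelihood test, adjusted by Benjamini-Hochberg over 20442 genes). All 40 members passed the expression filter. At an adjusted p under 0.05, 10 were higher in BCSC, where 15.3% of all tested genes were called higher, and 3 were lower, where 14.6% of all genes were. The remaining 27 did not pass. With a fold above 2 added, 3 members were higher (PTBP1, U2AF2 and PTBP3; 8.85% of all genes) and 0 were lower (11.3%). At an unadjusted p under 0.05 there were 20 members in both directions together. The matching share of all genes was not taken, so no result about the members is read from this count. DESeq2 called 7 higher and 8 lower without the fold, and 2 and 1 with it. Without the fold it called 6.504% of its 49751 tested genes higher and 11.47% lower. The 3 BCSC libraries lay above all 3 non-BCSC libraries for 15 members (24.2% of all genes) and below them for 9 (27.9%). The median log2 fold change was 0.10 over the members and -0.05 over all tested genes.

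The split between higher and lower depended on the scaling. With DESeq2's size factors in the same fit, 5 members were higher and 7 lower. With the scaling taken from genes averaging at least 500 counts, an alternative chosen after the data were seen, 4 were higher and 8 lower. The median of the members moved by -0.09 and -0.15 on the log2 scale under these scalings. After removal of the olfactory background 3 were higher and 9 lower. Over all genes these 3 settings called 12.98, 11.7 and 15.6% higher and 16.8, 18.3 and 13.5% lower. The 13 members called in the main test kept their direction under these 3 settings. PTBP1, U2AF2, HNRNPUL1, HNRNPR, HNRNPDL and HNRNPLL also stayed under an adjusted p of 0.05 in all 3, and each of the other 7 lost its call in at least 1. Background removal ended the calls of PTBP3 (adjusted p = 0.099), HNRNPL (0.051), HNRNPF (0.125), HNRNPAB (0.283), HNRNPA0 (0.098), SRSF4 (0.498) and SRSF3 (0.649). PTBP1, U2AF2, HNRNPUL1 and HNRNPR passed in each of the 6 fits that left out 1 library, and the other 9 failed in at least 1. When protein_coding transcripts alone were summed, U2AF2, HNRNPR and HNRNPDL passed and the other 10 did not, PTBP1 among them (adjusted p = 0.324). In that setting 1 of the 39 members tested was higher and 5 were lower, where 10.4% of all genes were higher and 9.39% lower.

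**Figure D1:**
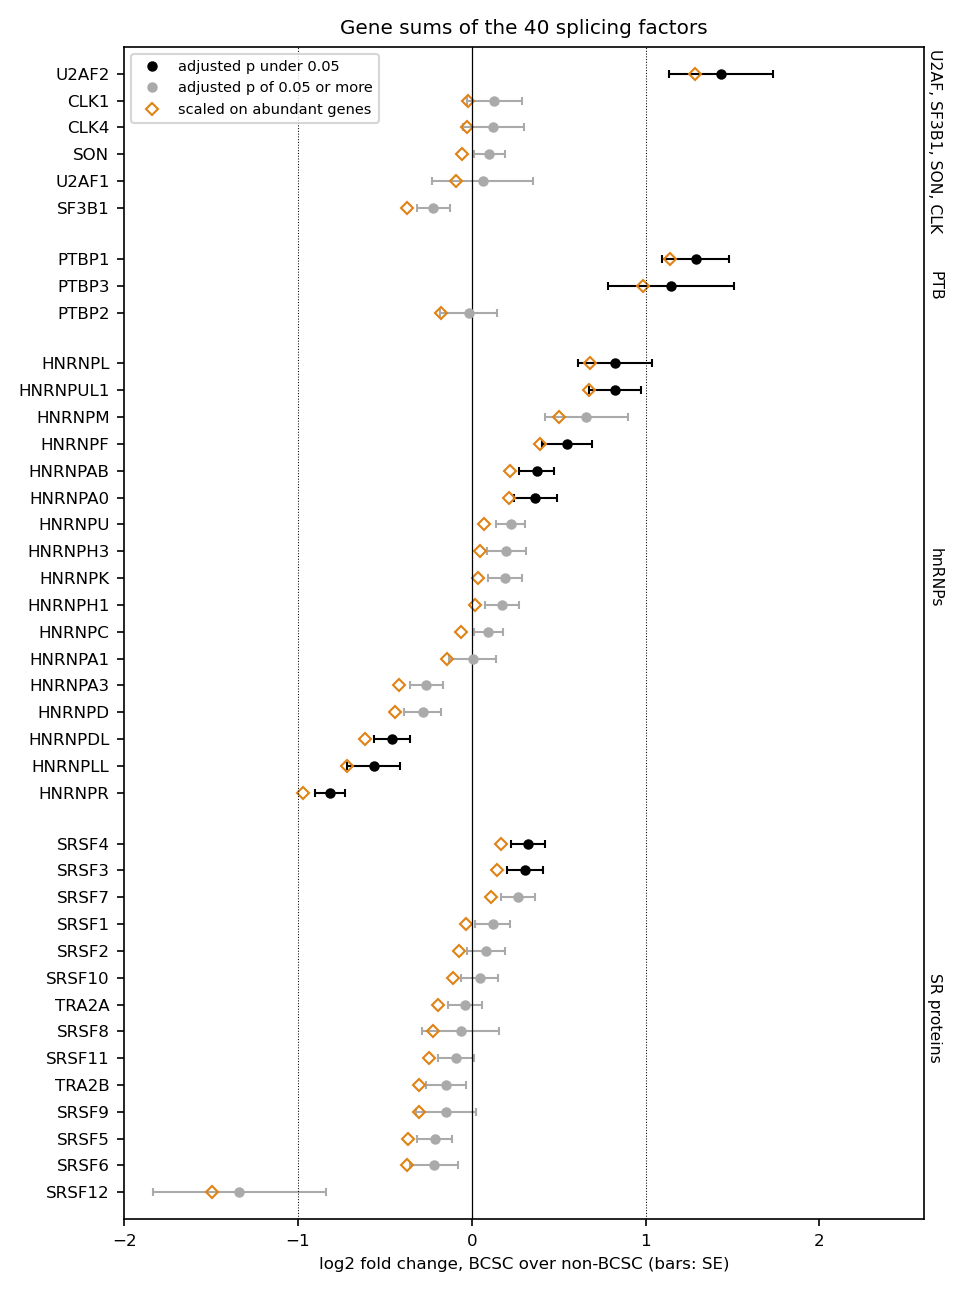
Log2 fold change of the gene sum, BCSC over non-BCSC, with its standard error, for the 40 members grouped by role. Black points passed an adjusted p of 0.05, grey points did not, orange diamonds give the same change with the scaling taken from abundant genes, and dotted lines mark a fold of 2. U2AF2, PTBP1 and PTBP3 lie furthest to the right, HNRNPR furthest to the left among the called members, and most members stay within 0.5 of 0.

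PTBP1, the polypyrimidine tract-binding protein that represses exons of many neuronal genes (ENSG00000011304, chr19:797075-812327, plus strand, GRCh37), was measured at 299, 228 and 198 CPM in BCSC and at 126, 85.0 and 85.4 CPM in non-BCSC. Every BCSC value lay above every non-BCSC value, a log2 fold change of 1.29 (SE 0.19, adjusted p = 0.0022, edgeR). PTBP3, a paralog expressed in many tissues (chr9:114979996-115095944, minus strand), lay at 462, 464 and 639 CPM in BCSC and at 108, 300 and 299 CPM in non-BCSC. Its change was 1.15 (SE 0.36, adjusted p = 0.0488), and it stayed under 0.05 without non-BCSC replicate 1 (adjusted p = 0.0123) and without non-BCSC replicate 2 (0.0481) but in none of the other 4 fits that left out a library (0.0551 to 0.154). PTBP2, the neuronal paralog, averaged 118 ± 26.7 CPM in BCSC and 119 ± 11.5 in non-BCSC (SD, n = 3), with a change of -0.02 (SE 0.17, adjusted p = 0.947).

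U2AF2, the large subunit of U2AF that binds the polypyrimidine tract (ENSG00000063244, chr19:56165512-56186082, plus strand), was at 95.9, 61.1 and 47.96 CPM in BCSC and at 34.99, 21.2 and 19.7 CPM in non-BCSC. The fractions did not overlap, and the log2 fold change was 1.43 (SE 0.30, adjusted p = 0.0082). Its partner U2AF1, which reads the AG at the intron end, averaged 23.5 ± 7.87 and 22.5 ± 5.10 CPM (change 0.06, SE 0.29, adjusted p = 0.890). U2AF1 has a near-identical annotated copy, so its counts are uncertain. SF3B1, the branch point factor of the U2 snRNP, lay at 504 to 583 CPM in BCSC and at 602 to 677 CPM in non-BCSC, without overlap, but did not pass (change -0.22, SE 0.10, adjusted p = 0.110). SON, a scaffold of nuclear speckles, and the kinases CLK1 and CLK4, which phosphorylate SR proteins, had changes between 0.10 and 0.13 with standard errors of 0.09 to 0.17, and none passed.

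Among the hnRNPs, 5 were higher and 3 lower of 17, against 15.3 and 14.6% of all tested genes. HNRNPUL1, a relative of HNRNPU, was at 296, 251 and 206 CPM in BCSC and at 161, 140 and 124 CPM in non-BCSC (log2 fold change 0.82, SE 0.15, adjusted p = 0.0048). HNRNPL, which binds CA repeats, was at 362, 307 and 209 CPM against 203, 164 and 128 CPM (0.83, SE 0.21, adjusted p = 0.018). The fractions did not overlap in either gene, and for HNRNPL the lowest BCSC library lay just above the highest non-BCSC library. HNRNPF, which binds G-rich tracts, was at 224, 171 and 161 CPM against 121, 121 and 139 CPM (0.55, SE 0.14, adjusted p = 0.019). HNRNPAB was at 359, 322 and 337 CPM against 285, 258 and 244 CPM (0.37, SE 0.10, adjusted p = 0.021). HNRNPA0, an intronless member of the A/B family, had a change of the same size (0.37, SE 0.12, adjusted p = 0.0485). These 3 changes were each below a 1.5-fold difference.

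HNRNPR, which is closely related to SYNCRIP and acts in mRNA transport and splicing (ENSG00000125944, chr1:23630264-23670829, minus strand), had the smallest p of all members. It was measured at 405, 404 and 399 CPM in BCSC and at 685, 752 and 686 CPM in non-BCSC. The BCSC libraries had an SD of 2.92 CPM and lay below all of the non-BCSC libraries, a change of -0.81 on the log2 scale (SE 0.09, adjusted p = 0.00051). HNRNPDL was at 337, 392 and 383 CPM against 530, 532 and 465 CPM (-0.46, SE 0.10, adjusted p = 0.011). HNRNPLL, the paralog of HNRNPL known for CD45 splicing in lymphocytes, was at 62.9, 75.9 and 75.9 CPM against 99.7, 126 and 91.9 CPM (-0.56, SE 0.15, adjusted p = 0.022). The paralogs HNRNPL and HNRNPLL had opposite signs in this test, but the call of HNRNPL ended after background removal, with protein_coding transcripts only (adjusted p = 0.234) and with the GC and length correction on abundant genes described with GC content (0.21, adjusted p = 0.105). HNRNPD (AUF1), the paralog of HNRNPDL, lay at 585, 753 and 658 CPM against 800, 823 and 804 CPM and did not pass (-0.28, SE 0.11, adjusted p = 0.070). HNRNPA3 lay at 658, 696 and 692 CPM against 759, 896 and 798 CPM and did not pass either (-0.26, SE 0.09, adjusted p = 0.062). Over 53.6% of the exonic bases of HNRNPA3 the gene NFE2L2 is annotated on the opposite strand, and whether counting used strand is not given in the sources used here.

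The other hnRNPs did not pass. HNRNPM had a change of 0.66 (SE 0.24, adjusted p = 0.060) with non-BCSC libraries between 84.9 and 189 CPM. HNRNPU, HNRNPK, HNRNPH1, HNRNPH3, HNRNPC and HNRNPA1 had changes between 0.01 and 0.22 with standard errors of 0.08 to 0.14. HNRNPA1 has 74 annotated pseudogenes, which held counts equal to 4.63% of its own, so its value is uncertain to that extent.

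Of the 14 SR proteins, 2 were higher, 0 were lower and 12 did not pass, against 15.3% higher and 14.6% lower over all tested genes. SRSF4 lay at 197, 205 and 194 CPM in BCSC and at 153, 170 and 154 CPM in non-BCSC (log2 fold change 0.32, SE 0.10, adjusted p = 0.034). SRSF3, the smallest SR protein, lay at 310, 330 and 293 CPM against 269, 229 and 257 CPM (0.30, SE 0.10, adjusted p = 0.0485). Both changes are small, although the fractions did not overlap. SRSF12 lay at 2.81, 2.74 and 3.02 CPM against 3.96, 10.1 and 7.67 CPM, a low level at which the change of -1.34 (SE 0.50) did not pass (adjusted p = 0.067). The other 11 SR proteins had changes between -0.22 (SRSF6) and 0.27 (SRSF7). SRSF1, the founding member, averaged 875 ± 87.4 CPM in BCSC and 805 ± 41.6 in non-BCSC (0.12, SE 0.10, adjusted p = 0.387). TRA2A and TRA2B, which bind GAA-rich enhancers, had changes of -0.04 (SE 0.10) and -0.15 (SE 0.11).

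**Figure D2:**
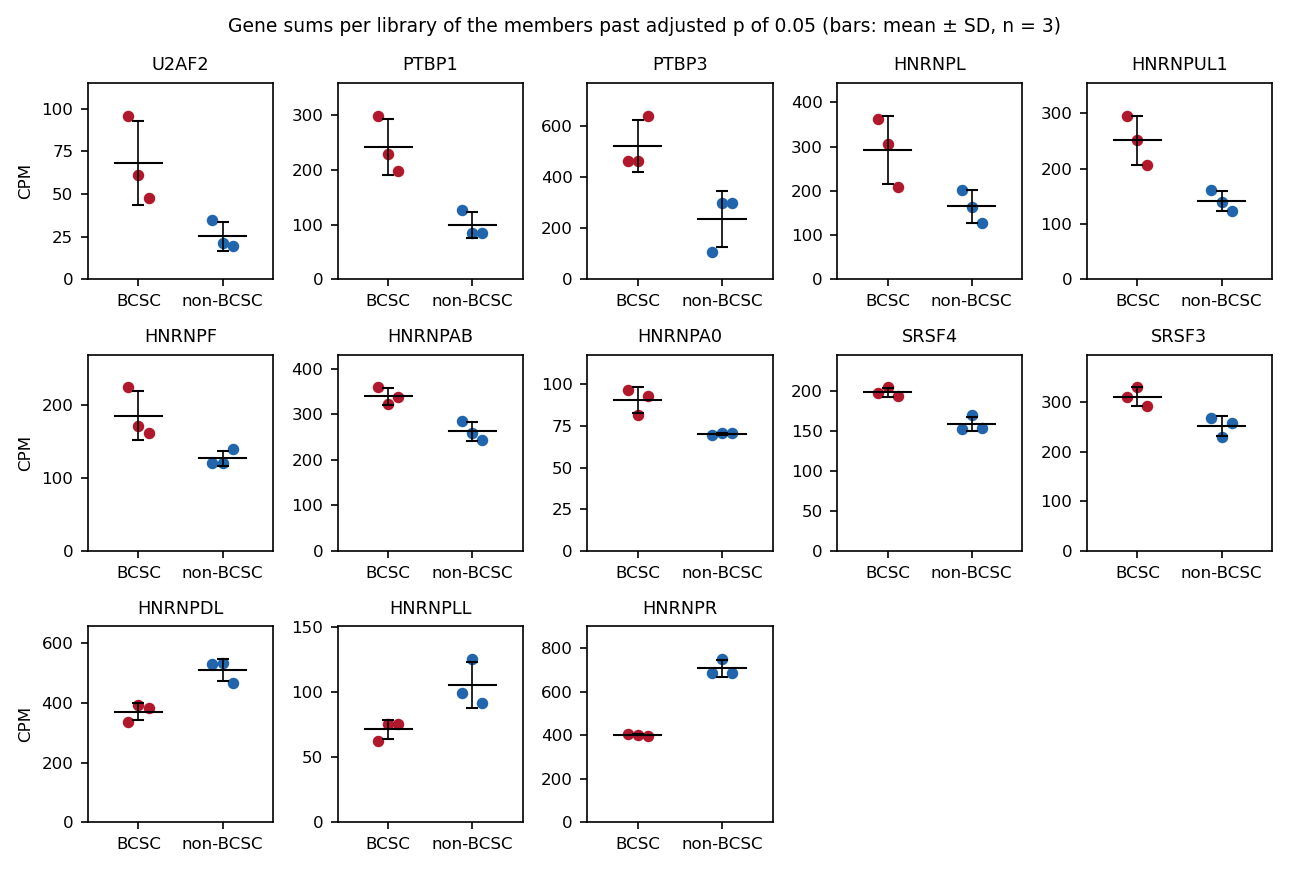
Gene sums in CPM per library (points) with mean and SD (bars, n = 3) for the 13 members past an adjusted p of 0.05, from the largest log2 fold change to the smallest. BCSC points are red and non-BCSC points blue, and the 3 points of a fraction do not overlap those of the other in any panel.

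GC content moved with these values. Over the 40 members the log2 fold change correlated with the GC content of the gene's transcripts at a Spearman rho of 0.39 and a Pearson r of 0.60, and over all 20442 tested genes at 0.54 and 0.47. These are correlations across genes that share the same 6 libraries. U2AF2 (60.9% GC), PTBP1 (58.4%), HNRNPUL1 (55.9%) and HNRNPAB (54.3%) are the richest members in GC, and HNRNPR has 40.4%. When GC content and length were corrected on genes averaging at least 500 counts, an alternative added after the data were seen, PTBP1 moved to 0.30 (adjusted p = 0.0094), U2AF2 to 0.36 (adjusted p = 0.068) and HNRNPUL1 to -0.05 (adjusted p = 0.689). HNRNPAB turned to -0.28 (adjusted p = 0.035). HNRNPR stayed at -0.82 (adjusted p = 2.25e-07), and PTBP3, which has 36.6% GC, stayed at 1.201 (adjusted p = 0.080). With that correction 5 of the 37 members tested were higher, 9 were lower and 0 passed a fold of 2, where 23.1% of all genes tested were higher and 25.2% lower. The same correction fitted over all genes, low ones included, moved the median of the members by 0.59, gave 26 higher and 0 lower (25.6 and 10.5% of all genes), and turned HNRNPR to 0.10 (adjusted p = 0.747), HNRNPDL to 0.91 and HNRNPLL to 0.98.

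**Figure D3:**
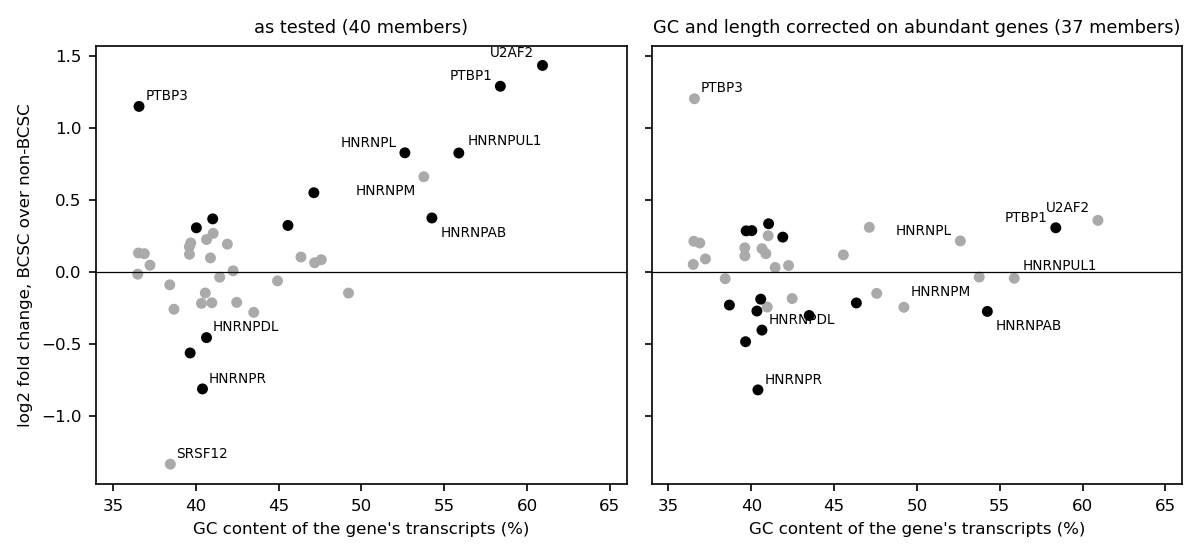
Log2 fold change of the gene sum against the GC content of the gene's transcripts, as tested (left) and with GC content and length corrected on abundant genes (right). Black points passed an adjusted p of 0.05. The members above 52% GC sit above 0.3 on the left and at or below 0.36 on the right, while HNRNPR and PTBP3 hardly move.

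To place the 40 members beside the rest of the splicing machinery, 3 lists were counted in the same edgeR fit. Over all tested genes 15.3% were higher and 14.6% lower (median log2 fold change -0.05). Of 40 core spliceosome genes, 16 were higher and 4 lower (median log2 fold change 0.44). SF3B4, a U2 snRNP subunit, averaged 99.2 CPM in BCSC and 37.4 in non-BCSC (log2 fold change 1.41, adjusted p = 0.00094), and SNRPF, an Sm core protein, averaged 19.1 and 55.2 CPM (-1.53, adjusted p = 0.00064). Of 35 further splicing regulators, 10 were higher and 4 lower (median 0.06), and of 20 genes of NMD and the exon junction complex 6 were higher and 1 lower (median 0.28). UPF1, the central helicase of NMD, averaged 62.6 CPM in BCSC and 19.6 in non-BCSC (1.67, SE 0.26, adjusted p = 0.0024), and at 59.9% GC its change was 0.53 with GC content and length corrected on abundant genes (adjusted p = 0.019). These splits moved with the scaling as well. With scaling on abundant genes the core spliceosome list had 13 higher and 9 lower, the further regulators 7 and 9, and the NMD and exon junction list 6 and 4. In that setting 11.7% of all genes were higher and 18.3% lower. With GC content and length corrected on abundant genes the 3 lists had 4 and 9 of 30, 7 and 10 of 33, and 4 and 3 of 15. There 23.1% of all genes tested were higher and 25.2% lower.

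The transcripts of the 40 genes show how much of each sum is not annotated as coding. They hold 675 transcripts, of which 332 are protein coding, 161 are retained_intron, 118 are nonsense_mediated_decay and 64 have no defined coding sequence. HNRNPA0, HNRNPF, HNRNPH3 and PTBP3 have no RI or NMD transcript on file, so 36 members have an RI/NMD share. The alternative pieces that set these transcripts apart are given here for 4 NMD and 2 RI transcripts, read from the GENCODE transcripts and GRCh37, since the levels of these transcripts are described with the results on SRSF6, SRSF3, the TRA2 pair, HNRNPH1 and HNRNPD.

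For the NMD transcripts, the sequence runs from the start of the extra exon to the first in-frame stop codon, which is in capitals. None of these bases is in the coding transcript it was compared with. SRSF6-202 includes exon 3 of 7, read on the plus strand at chr20:42087793-42087944. SRSF3-203 includes exon 4 of 7, on the plus strand at chr6:36567598-36567631. TRA2B-205 includes exon 2 of 10, on the minus strand at chr3:185649560-185649640, and TRA2A-211 exon 2 of 9, on the minus strand at chr7:23561908-23562051. Both TRA2 exons open with the same 9 bases, gttaatgtt.
SRSF6-202: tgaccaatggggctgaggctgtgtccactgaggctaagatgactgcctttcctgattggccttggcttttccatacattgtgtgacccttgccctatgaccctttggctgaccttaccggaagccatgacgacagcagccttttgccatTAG
SRSF3-203: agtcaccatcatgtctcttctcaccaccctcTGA
TRA2B-205: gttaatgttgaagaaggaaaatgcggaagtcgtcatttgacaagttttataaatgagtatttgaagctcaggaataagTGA
TRA2A-211: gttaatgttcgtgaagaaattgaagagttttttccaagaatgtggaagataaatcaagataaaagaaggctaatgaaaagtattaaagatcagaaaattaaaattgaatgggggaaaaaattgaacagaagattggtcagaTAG

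For the RI transcripts, whole short introns are given, with the GT and AG at their ends in capitals. HNRNPH1-227 keeps 6 of the 13 introns of HNRNPH1-203, and the one printed is intron 10, on the minus strand at chr5:179043960-179044051. HNRNPD-210 keeps 4 of the 8 introns of HNRNPD-201, and the one printed is intron 6, on the minus strand at chr4:83277837-83277948. Both lie between coding exons.
HNRNPH1-227: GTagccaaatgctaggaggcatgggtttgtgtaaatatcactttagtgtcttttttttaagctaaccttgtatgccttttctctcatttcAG
HNRNPD-210: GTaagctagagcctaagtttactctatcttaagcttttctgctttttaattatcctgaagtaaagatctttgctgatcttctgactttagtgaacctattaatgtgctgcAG

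Summed over the 40 members, RI and NMD transcripts took 39.4, 39.4 and 38.2% of the counts in BCSC, against 30.03, 35.9 and 30.3% in non-BCSC. Over all counts on file the same classes took 12.2 to 13.01% in BCSC and 11.9 to 13.5% in the other fraction. The members thus carried more of their counts on such transcripts than the whole library did, and the fractions differed over the members without overlap and over all counts with overlap. HNRNPU alone held 12.6 to 14.8% of the members' counts. Without it the BCSC shares were 30.7, 32.0 and 29.5%, against 23.8, 28.9 and 23.4% in non-BCSC. These sums are a description, with no test.

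By gene, 36 members were tested for a difference in the RI/NMD share, and 0 were called in either direction (edgeR quasi-likelihood test of both classes with a term per library, adjusted over 8446 genes). Of all genes 0.0118% were called higher and 0.0237% lower, so few calls were made anywhere. At an unadjusted p under 0.05 there were 3 members, against 9.37% of all genes, and limma on the log2 ratio of the classes also called 0 with 3 at that p. The fitted odds of an RI or NMD read were higher in BCSC for 27 members and lower for 9, or 75.0% higher against 46.8% of all tested genes. The sign of the fitted odds did not always match the mean shares. SRSF2, HNRNPLL, SRSF8, HNRNPDL, HNRNPAB and SRSF1 had higher fitted odds but a lower mean share in BCSC, and no member had the reverse. The median log2 odds ratio was 0.54 over the members and -0.11 over all genes. The 3 BCSC libraries lay above all non-BCSC libraries for 4 members (8.3% of all genes) and below them for 1 (9.72%). In 32 of the 36 the range within a fraction was wider than the difference between the means, as in 89.4% of all genes.

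**Figure D4:**
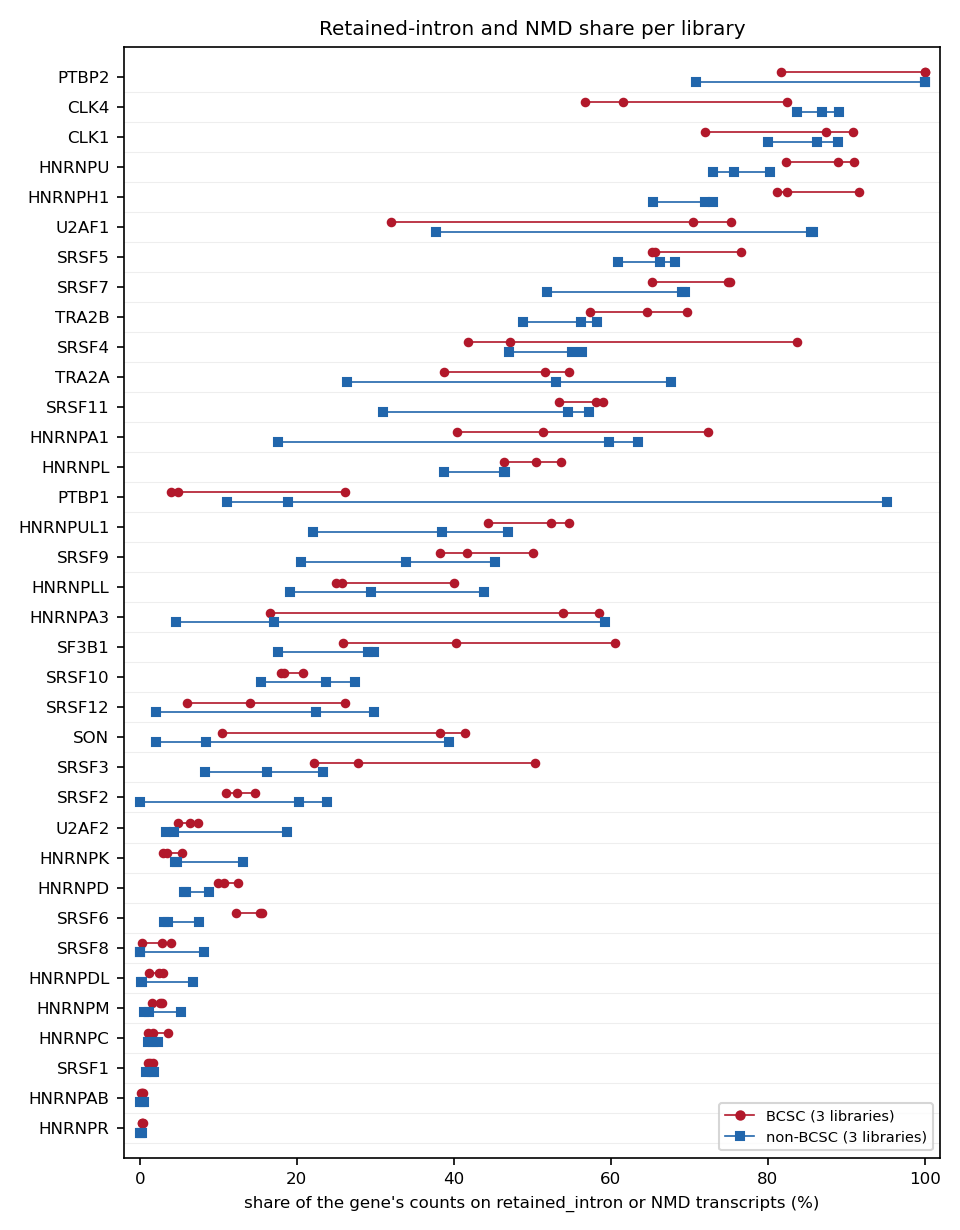
Share of each gene's counts on retained_intron or NMD transcripts, in percent, in each library (BCSC red circles, non-BCSC blue squares, lines from lowest to highest) for 36 members ordered by the non-BCSC mean. SRSF6, HNRNPU, HNRNPH1 and HNRNPD have BCSC points that all lie to the right of the non-BCSC points, CLK4 the reverse, and most other members overlap widely.

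SRSF6 (chr20:42086533-42094686, plus strand) had the smallest p. Its share was 15.5, 15.4 and 12.3% in BCSC against 7.54, 3.05 and 3.57% in non-BCSC. All BCSC values lay above all non-BCSC values, with a log2 odds ratio of 1.87 (SE 0.58, unadjusted p = 0.0138, adjusted p = 0.386, edgeR). All of it came from SRSF6-202, the NMD transcript with the exon shown above, at 22.0, 20.9 and 12.4 CPM against 11.3, 4.42 and 5.18 CPM (unadjusted p = 0.0481, adjusted p = 0.281). The coding SRSF6-201 was at 119, 115 and 88.3 CPM against 139, 140 and 140 CPM (adjusted p = 0.527). SRSF6-202 lay higher and SRSF6-201 lower in each BCSC library than in each non-BCSC library, and neither passed on its own.

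HNRNPU (chr1:245003940-245027862, minus strand), a nuclear matrix protein that binds chromatin-associated RNA, had RI/NMD shares of 91.0, 82.3 and 88.9% in BCSC against 73.1, 80.3 and 75.7% in non-BCSC, mostly on RI transcripts (a mean of 86.3 and 72.3% of its counts). The log2 odds ratio was 1.16 (SE 0.42, unadjusted p = 0.0267, adjusted p = 0.458). The RI transcript HNRNPU-217 led in 2 BCSC libraries, at 614, 613 and 202 CPM in BCSC against 0, 467 and 220 CPM in non-BCSC. HNRNPU-209, also RI, led in the other 4 libraries, at 580, 609 and 744 CPM against 815, 554 and 598 CPM, and neither separated the fractions. The coding HNRNPU-205 was at 71.4, 167 and 124 CPM against 442, 120 and 207 CPM, with 1 non-BCSC library far above the rest. COX20 is annotated opposite 15.6% of the exonic bases of HNRNPU.

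HNRNPH1 (chr5:179041179-179061785, minus strand), which binds runs of G, had shares of 91.7, 82.4 and 81.2% in BCSC against 72.1, 65.4 and 73.0% in non-BCSC (log2 odds ratio 1.36, SE 0.49, unadjusted p = 0.0278, adjusted p = 0.461). HNRNPH1-227, which keeps the intron shown above, was at 399, 459 and 445 CPM in BCSC and at 276, 218 and 257 CPM in non-BCSC. The fractions lay apart by more than their spread, and the adjusted p over all transcripts was 0.0514 (log2 fold change 0.87, SE 0.13). The coding HNRNPH1-203 was at 14.6, 76.7 and 107 CPM against 138, 168 and 146 CPM (adjusted p = 0.474). HNRNPD had shares of 9.97, 10.8 and 12.5% against 5.63, 8.77 and 5.94% (log2 odds ratio 0.80, SE 0.40, unadjusted p = 0.082). Its RI transcript HNRNPD-210 was at 47.5, 39.8 and 66.3 CPM against 44.6, 50.4 and 47.4 CPM, and the coding HNRNPD-201 at 411, 483 and 424 CPM against 557, 652 and 515 CPM. For HNRNPD the RI transcript overlapped between the fractions and the coding transcript did not, and NMD transcripts took a mean of 3.24% of its counts in BCSC against 0.92% in non-BCSC.

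The next members with higher odds in BCSC overlapped between the fractions. SRSF3 had shares of 22.1, 50.4 and 27.8% against 23.4, 8.33 and 16.2% (unadjusted p = 0.084). Its poison exon transcript SRSF3-203 was at 5.96, 96.2 and 0 CPM in BCSC and at 0 in all non-BCSC libraries, so that 1 library held most of it, and it did not pass the expression filter. The RI transcript SRSF3-207 was at 51.2, 59.95 and 75.9 CPM against 57.8, 8.22 and 27.4 CPM, and the coding SRSF3-202 at 241, 164 and 210 CPM against 206, 210 and 214 CPM. SF3B1 had shares of 40.3, 25.9 and 60.6% against 29.1, 29.8 and 17.6%. The highest of these came with 205 CPM of the RI transcript SF3B1-208 in BCSC replicate 3, where the other 5 libraries had 8.67 to 17.4 CPM. HNRNPUL1 had shares of 52.4, 54.6 and 44.3% against 46.9, 38.6 and 22.1%, almost all from the NMD transcript HNRNPUL1-208. HNRNPR had under 0.5% in every library, so that its lower gene sum lay in other transcripts.

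CLK4 was the member whose BCSC shares lay below all non-BCSC shares, at 56.7, 82.5 and 61.5% against 83.8, 86.9 and 89.1% (log2 odds ratio -1.62, SE 0.72, unadjusted p = 0.057, adjusted p = 0.545). The kinases CLK1 and CLK4 are known to store RNA with retained introns in the nucleus. CLK1 was at 90.9, 72.0 and 87.5% against 89.0, 86.3 and 80.0%, and its leading transcript CLK1-210 keeps 2 of 12 introns. In CLK4 the transcript CLK4-203 (RI) was at 17.9, 9.26 and 8.35 CPM in BCSC and at 0.0825, 0 and 0 CPM in non-BCSC, without passing (adjusted p = 0.0542). The non-BCSC libraries held 1 count of it in all, so the pooled ratio of 418 has a 95% counting interval of 74.8 to 16538. CLK4-203 passed the expression filter only through BCSC, so its adjusted p is no separate support for a difference. CLK4-206, another RI transcript, was at 0, 34.5 and 31.3 CPM against 12.6, 45.8 and 23.3 CPM. The RI transcripts took a mean of 61.3% of the counts of CLK4 in BCSC and 58.8% in non-BCSC, with a log2 odds ratio for RI alone of 0.070 (SE 1.03, unadjusted p = 0.948, edgeR). The NMD transcripts took 5.58 and 27.8%, so in the means the lower share of CLK4 lay in the NMD class. CLK4-210 (NMD) was at 4.09, 0.261 and 0.847 CPM against 26.2, 0 and 0 CPM, and CLK4-209 (NMD) at 0, 3.13 and 1.75 CPM against 0, 0 and 20.3 CPM, each highest in 1 non-BCSC library and at 0 in the other two.

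The other members with lower odds in BCSC by smallest p varied widely between libraries. PTBP1 had shares of 26.2, 4.86 and 3.94% in BCSC against 11.2, 95.2 and 18.9% in non-BCSC, where 1 non-BCSC library set the mean. HNRNPK, which binds C-rich RNA, had 2.995, 3.49 and 5.40% against 4.75, 13.2 and 4.52%. U2AF1 had 75.4, 32.0 and 70.5% against 37.8, 85.8 and 85.5%. SRSF10, a splicing repressor when dephosphorylated, had 18.1, 18.4 and 20.8% against 15.5, 23.7 and 27.4%. U2AF2 had 4.88, 7.48 and 6.43% against 3.30, 18.8 and 4.39%, and SRSF12 had 14.04, 26.2 and 6% against 2.08, 29.8 and 22.5%. None of these separated the fractions.

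Members differed far more from each other than between fractions. The mean share was above 50% in both fractions for 10 members and below 5% in both for 7 of the 36 members with such a share. Among the SR proteins, SRSF7 averaged 71.8 ± 5.65% in BCSC and 63.5 ± 10.03% in non-BCSC, mostly on the NMD transcript SRSF7-208, while SRSF5 averaged 69.2 ± 6.49 and 65.1 ± 3.73%, all on RI transcripts. SRSF1 averaged 1.39 ± 0.33 and 1.39 ± 0.55%. Among the hnRNPs, HNRNPC averaged 2.14 ± 1.31 and 1.68 ± 0.59%, and HNRNPAB stayed under 0.6% in every library.

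At the level of single transcripts 314 of the 675 passed the expression filter, and 39 had an unadjusted p under 0.05 (17.4% of 46176 transcripts did). After adjustment 1 was called higher (0.593% of all) and 1 lower (0.191%), both coding. Without a minimum fold the counts were the same (0.606 and 0.204% of all). PTBP1-201 was at 67.6, 29.1 and 67.6 CPM in BCSC and at 0 in all non-BCSC libraries, at least 205-fold higher against a floor of 3 counts per library (adjusted p = 0.0467, edgeR). HNRNPUL1-201 was at 0 in all BCSC libraries and at 26.8, 39.6 and 65.6 CPM in non-BCSC, at least 251-fold lower (adjusted p = 0.0465). PTBP1-201 and HNRNPUL1-201 each passed the expression filter only through the fraction that held its counts. These adjusted p-values are therefore no separate support for a difference. Neither was called in any of the 6 fits that left out 1 library, nor was any other member transcript, with adjusted p up to 0.431 for both.

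Other coding transcripts of the same genes behaved differently. PTBP1-203 was at 125, 187 and 109 CPM in BCSC and at 110, 0 and 32.1 CPM in non-BCSC (adjusted p = 0.749). HNRNPUL1-204 was at 136, 110 and 111 CPM against 54.5, 41.9 and 28.2 CPM (log2 fold change 1.59, SE 0.32, adjusted p = 0.074), opposite in direction to HNRNPUL1-201. The step that assigned reads to transcripts that share exons is not given in the sources used here. Of the 40 members, 12 had the same leading transcript in all 6 libraries, 10 had 3 or more different leaders, and in 0 did the leader differ between the fractions and agree within each.

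**Figure D5:**
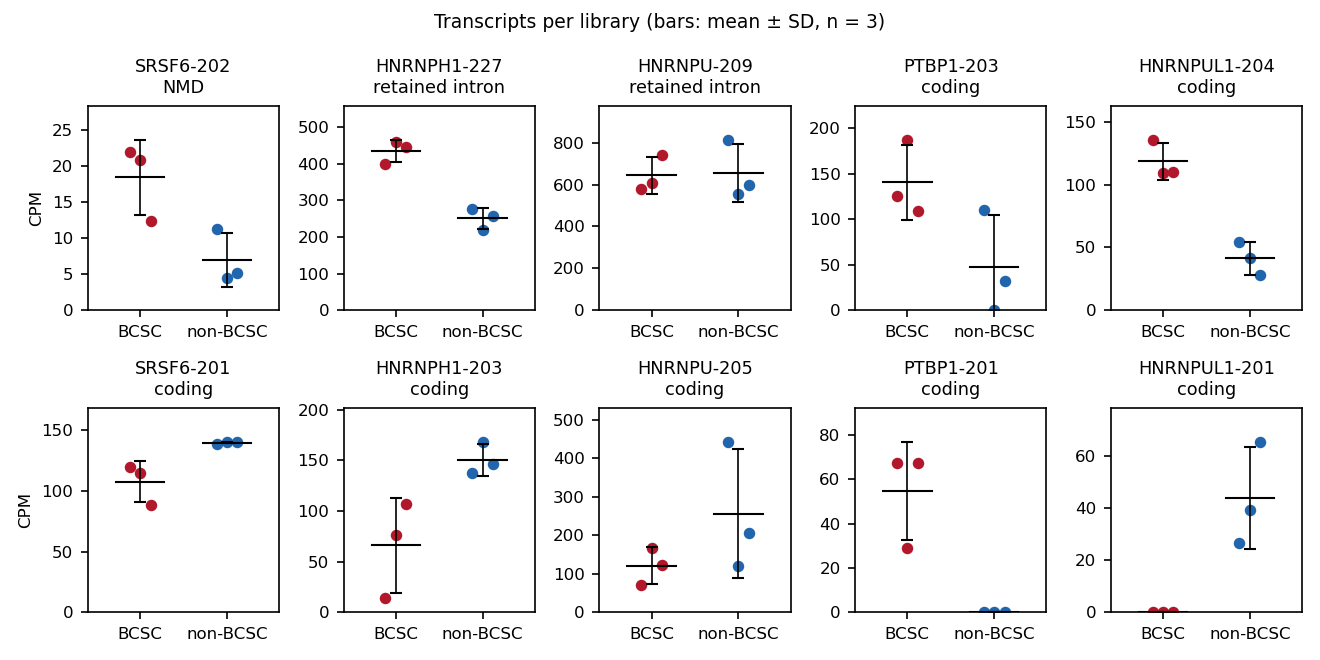
CPM per library (points) with mean and SD (bars, n = 3) for 10 transcripts of SRSF6, HNRNPH1, HNRNPU, PTBP1 and HNRNPUL1, 1 gene per column, each with its annotated class. HNRNPH1-227 lies at 399 to 459 CPM in BCSC and 218 to 276 in non-BCSC, PTBP1-201 at 0 in non-BCSC and HNRNPUL1-201 at 0 in BCSC.

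Poison exon transcripts of both TRA2 paralogs were also followed. TRA2A-211 was at 4.29, 38.8 and 25.3 CPM in BCSC and at 0.248, 0 and 0 CPM in non-BCSC (unadjusted p = 0.0049, adjusted p = 0.085). The pooled ratio was 238, with a 95% counting interval of 81.3 to 1157, since non-BCSC held 3 counts in all. TRA2A-211 passed the expression filter only through BCSC, so these p-values are no separate support for a difference. TRA2B-205 was at 12.8, 10.05 and 9.86 CPM in BCSC and at 18.3, 39.8 and 23.5 CPM in non-BCSC (log2 fold change -1.24, SE 0.47, unadjusted p = 0.041, adjusted p = 0.260). Each separated the fractions, in opposite directions, and neither passed. TRA2B was otherwise led by the coding TRA2B-204, at 170, 282 and 262 CPM against 286, 395 and 323 CPM, and by the RI transcript TRA2B-214, at 201, 146 and 219 CPM against 160, 133 and 129 CPM. The RI/NMD share of TRA2A averaged 48.3 ± 8.45% in BCSC and 49.0 ± 20.98% in non-BCSC, and that of TRA2B 63.9 ± 6.26 and 54.4 ± 4.98%.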

How the data were processed

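LncRNA sequencing was carried out on 3 BCSC and 3 non-BCSC libraries, grouped by sample title. Whether replicates came from separate cultures or sorts is not stated, so p-values measure only the spread between these libraries. Libraries were made with random primers and a dUTP second strand.

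The authors deposited estimated counts per transcript as whole numbers, with no scaling or filter applied. The submitters' notes name HISAT2, featureCounts, DESeq2 and hg38, whereas the study's methods name hg19. The annotation release and the step that assigned reads to transcripts are not given in the sources used here. Identifiers of 249787 of 252618 transcripts (98.88%) matched GENCODE on GRCh37, which gave genes, transcript classes, GC content and all positions. The 2827 unmatched and 4 assembler-made identifiers were left out of gene sums (at most 0.34% of a library).

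Library totals were 15925943 to 21215352 counts in BCSC and 9898588 to 12263667 in non-BCSC. Where a feature has 0 counts, up to 3 are allowed for, or 0.141 to 0.303 CPM of all counts. The Wilson binomial 95% interval of a share had a median half-width of 0.949 points over members and libraries and at most 12.9 points. Reads carried no molecular identifiers, so intervals and floors cover counting error only.

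Gene sums, transcripts and the RI/NMD share were tested across all features in edgeR 4.0.16 (R 4.3.3) (TMM scaling, filterByExpr, robust quasi-likelihood F-test, Benjamini-Hochberg adjustment). Gene and transcript calls needed an adjusted p under 0.05 and a fold above 2, the study's rule, and calls without the fold are given beside them. The share was fitted as a class by group interaction with a term for each library, on genes with at least 10 counts in at least 3 libraries. CPM values use TMM library sizes, and values are mean ± SD (n = 3). Bounds set the mean CPM of the higher fraction against the mean CPM of 3 counts per library in the other. With 1 to 3 counts in all in a fraction, the ratio of pooled CPM is given with an exact binomial counting interval instead.

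The members were listed by gene name, but they and the gene lists were chosen with earlier results of these data known. Values per library were given for called members, for the 6 with the smallest p in each direction of the gene sums, for the 8 in each direction of the share, and for their leading RI or NMD and coding transcripts where those bear on the result. Other named genes and transcripts were chosen after their values were seen. Alternatives were DESeq2 1.42.0, its size factors, other filters, a replicate block, each library left out, coding transcripts only, a GC and length correction (loess, span 0.3), removal of the olfactory background, either class alone, and limma 3.58.1 on log2 ratios with 0.5 added. Scaling and GC correction on genes averaging at least 500 counts were added after the data were seen.

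Tests were tried on simulated counts with 4-fold changes. At a dispersion of 0.05 the gene-sum step recovered 180 of 187 changed genes among 19817, the share step 167 of 196 among 8348 and the transcript step 186 of 189 among 44427. At a dispersion of 0.2 the gene-sum step recovered 81 of 190. At 0.3 the share step recovered 1 of 196, and at 1 the transcript step 0 of 170. The 0.3 of the share step was a chosen setting, and no dispersion of the share fit is given here. The common coefficient of variation of these data was 0.453 for gene sums and 1.02 for transcripts.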

Additional observations from a re-analysis of the deposited data

How the results depend on the processing

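Of the 40 gene sums, 3 were called higher and 0 lower with a fold above 2, and without a minimum fold 10 were higher and 3 lower. With that fold, 1 was called lower with DESeq2, with at least 10 counts in every library, with scaling on abundant genes (SRSF12 in these 3) and after removal of background (HNRNPR). With protein_coding transcripts only, 1 was called higher (U2AF2). Correction for GC content and length over all genes gave 16 higher and 0 lower, and moved the median of the members by 0.59 on the log2 scale. Correction on abundant genes gave 0 higher and 0 lower. The cause of these moves was not tested. Leaving out each library gave 2 to 3 higher and 0 to 1 lower, the latter without non-BCSC replicate 1 (SRSF12). The RI/NMD share had 0 calls under every alternative run, with 1 to 5 members at an unadjusted p under 0.05. Among member transcripts DESeq2 called 16 higher and 7 lower, no filter on low counts called 3 higher, at least 10 counts in every library called 3 lower, and every fit that left out 1 library called 0 and 0. For calls with a fold above 2, shares of all features are given only for the main tests. They were 8.85% higher and 11.3% lower for gene sums, and 0.593 and 0.191% for transcripts. The counts under other settings have no such share beside them, so none of them is read as a result about the members.

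The gene sum of SRSF3 turned to -0.19 with protein_coding transcripts only. After GC and length correction over all genes, SRSF12 turned to 0.34, HNRNPA0 to -0.046, HNRNPA3 to 0.68, HNRNPAB to -0.32, HNRNPD to 0.82, HNRNPDL to 0.91, HNRNPLL to 0.98, HNRNPR to 0.10, HNRNPUL1 to -0.067 and U2AF2 to -0.072. On abundant genes only, HNRNPAB turned to -0.28 and HNRNPUL1 to -0.046. The 16 members followed one by one kept direction and call in 82 of their other results and in 58 of those that left out 1 library, lost the call in 46 and 37, and gained it in 18 and 1.

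Same-numbered libraries did not deviate together in every pair (correlations of deviations 0.16, 0.01 and 0.20), so the numbers were not taken as pairs. With a replicate block, 11 gene sums were higher and 5 lower without a minimum fold, where 18.5% of all genes were higher and 15.6% lower. With the fold, 2 were higher and 0 lower (PTBP3 was lost). The RI/NMD share had 0 calls, and the transcripts had 0 higher and 0 lower.

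The spread between libraries limits the transcript and share results. In simulated counts 0 of 170 changed transcripts were recovered at a dispersion of 1, a rounded value from these data. For shares 1 of 196 was recovered at 0.3, a chosen setting that was not taken from these data. The few calls for transcripts and shares therefore do not show that these stayed the same.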

Other observations

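Within the other splicing lists, named here after their values were seen, several genes passed in the edgeR test of the gene sums and also with GC content and length corrected on abundant genes. Of the SF3 complexes of the U2 snRNP, SF3B3 lay at 653, 576 and 489 CPM in BCSC against 302, 254 and 264 CPM in non-BCSC (log2 fold change 1.07, adjusted p = 0.00072, and 0.55 corrected). SF3B4 and SF3A1 were higher as well, at 1.41 and 1.03 (0.74 and 0.48 corrected). SF3A3 was at 0.0041 (adjusted p = 0.984), and SF3B2 was at -0.42 without passing (adjusted p = 0.083) and at -1.24 corrected (adjusted p = 3.78e-08). SF3A2 (1.41), SF3B5 (0.86) and PHF5A (1.11) also passed in the main test but had no corrected value. The SF3A and SF3B subunits called in the main test were thus all higher. SF3B2 was called lower only under other settings, among them scaling on abundant genes (-0.58, adjusted p = 0.030, edgeR).

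Among the splicing regulators, CELF1, which binds GU-rich RNA, lay at 361, 361 and 358 CPM against 188, 198 and 197 CPM (0.89, adjusted p = 0.00034, and 0.52 corrected). MBNL2, a muscleblind protein, was at 0.67, and at 0.68 corrected. LUC7L3, a U1 snRNP-associated protein, lay at 270, 309 and 331 CPM against 519, 546 and 482 CPM, a change of -0.77 (adjusted p = 0.0015), and at -0.75 corrected. In NMD, SMG5 lay at 137, 86.2 and 72.9 CPM against 33.4, 30.9 and 20.6 CPM (1.80, adjusted p = 0.0019, and 0.79 corrected). The correction thus lowered the values of GC-rich SMG5 (57.6% GC) and moved those of MBNL2 (36.99%) and LUC7L3 (39.1%) little.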
